A study of Mus musculus with 2 samples.

Results

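Most of the 8 genes described here make or equip the red cell: Hba-a1 and Hba-a2 (adult α-globin), Hbb-bs and Hbb-bt (adult β-globin), Alas2 (the first enzyme of heme synthesis in erythroid cells) and Slc4a1 (band 3, the anion exchanger of the red cell membrane). The others are Isg20 (an interferon-induced exonuclease) and Mkrn1 (a makorin E3 ubiquitin ligase). All 8 were taken by symbol from the 34285 genes of each matrix, and each symbol matched 1 row. The cells came from first mandibular molars and surrounding tissue of C57BL/6J mice at PN15.5, dissociated with Dispase and Collagenase I and captured on the 10x Genomics platform. Lipo-Clo mice had received clodronate liposomes, which deplete phagocytes, at 40 μg/g by intraperitoneal injection on PN3.5 and again on PN6.5, PN9.5 and lastly PN12.5, and Lipo-PBS mice had received liposomes with PBS on the same days. There was 1 library per condition, and the number of mice in each is not given in the sources used here. Between conditions the text therefore gives values with exact 95% intervals for counting error only and no test, and the library and the condition cannot be told apart.

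Erythroblasts build hemoglobin from α and β chains around heme, whose synthesis begins in the mitochondrion with the enzyme that Alas2 encodes. As they mature they stop dividing, extrude the nucleus and become reticulocytes, which clear their organelles and most of their RNA while globin messages persist. Lysed red cells release globin mRNA into a cell suspension, so droplets holding other cell types can also contain it.

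The Lipo-Clo matrix held 9362 cells and 31053404 UMIs (unique molecular identifiers, each standing for 1 captured mRNA molecule), and the Lipo-PBS matrix 9653 cells and 30537834 UMIs, with medians of 2666.5 and 2722 UMIs per cell. Mitochondrial genes took 0.358% of UMIs in Lipo-Clo and 1.65% in Lipo-PBS, and 30 barcodes occurred in both libraries. Cells with fewer than 200 genes were kept apart as low-gene cells, 473 (5.05%) of Lipo-Clo and 748 (7.75%) of Lipo-PBS. The other cells were clustered without the 8 genes. Clusters with Ahsp among their leading genes were named erythroid from fixed markers, and they held 397 of 8255 kept cells (4.81%) in Lipo-Clo and 271 of 8262 (3.28%) in Lipo-PBS. Subclustering gave dividing erythroblast-like cells (129 and 45, led by H2ac10, Cenpk and H2bc15) and late erythroblast- or reticulocyte-like cells (154 and 85, led by Gadd45a, Tmcc2 and Rbm38). The remaining 114 and 141 cells fell in subclusters led by Aebp1 and Col1a1, by Rgs5 or by Cd79a, genes of other lineages, and were left unnamed.

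The near identity of the paralogs bears on every value that separates them. In the GENCODE models on GRCm38, Hba-a1 lies at chr11:32283511-32284465 and Hba-a2 at chr11:32296489-32297298, both on the + strand, and Hbb-bs lies at chr7:103826534-103828096 and Hbb-bt at chr7:103812524-103813996, both on the - strand. The coding sequences of the α pair (426 bases without the stop codon) differed at 1 base, C381T from Hba-a1 to Hba-a2, and those of the β pair (441 bases) at 1 base, C417T from Hbb-bs to Hbb-bt, counted from the first base of the start codon. Both fall on the third base of a codon, and they are shown with the differing base in capitals:

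Hba-a1 coding bases 361 to 401: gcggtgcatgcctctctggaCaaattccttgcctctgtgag
Hba-a2 coding bases 361 to 401: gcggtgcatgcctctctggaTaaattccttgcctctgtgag
Hbb-bs coding bases 397 to 437: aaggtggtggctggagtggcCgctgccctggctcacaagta
Hbb-bt coding bases 397 to 437: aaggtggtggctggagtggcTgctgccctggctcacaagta

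Of the 90-base windows in the last 300 bases of the transcript, where 3′ libraries place their reads, 57.3% of those of Hba-a1 also occurred in Hba-a2, against 24.6% of those of Hbb-bs in Hbb-bt. The split of UMIs within the α pair is thus less certain than within the β pair, and how the authors' counting assigned shared reads is not given in the sources used here.

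Upstream of the start sites the 2 pairs differ in how much they share. The 250 bases before the RefSeq start of Hba-a1 and Hba-a2 (GRCm38.p6) hold a common run of 247 bases, so only Hba-a1 is shown, whereas Hbb-bs and Hbb-bt share no run longer than 14 bases. The GENCODE models of all 5 genes, both α and both β genes and Alas2, reach into their windows, since they start further upstream than the RefSeq ones. Capitals mark the letters GATAA, CCNCNCCC (CACC box), CCAAT and TATAA on either strand. These are given as 5′ to 3′ along the gene:

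Hba-a1 upstream, chr11:32283422-32283671, + strand: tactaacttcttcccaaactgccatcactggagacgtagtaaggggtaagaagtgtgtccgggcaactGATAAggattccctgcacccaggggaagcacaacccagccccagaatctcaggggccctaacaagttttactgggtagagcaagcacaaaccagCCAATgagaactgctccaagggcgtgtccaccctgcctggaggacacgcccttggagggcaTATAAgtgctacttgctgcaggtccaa
Hbb-bs upstream, chr7:103827929-103828178, - strand: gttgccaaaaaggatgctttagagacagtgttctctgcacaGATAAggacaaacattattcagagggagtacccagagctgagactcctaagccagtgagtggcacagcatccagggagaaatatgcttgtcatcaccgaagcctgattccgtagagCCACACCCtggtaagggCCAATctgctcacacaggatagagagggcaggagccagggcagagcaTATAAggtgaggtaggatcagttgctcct
Hbb-bt upstream, chr7:103813924-103814173, - strand: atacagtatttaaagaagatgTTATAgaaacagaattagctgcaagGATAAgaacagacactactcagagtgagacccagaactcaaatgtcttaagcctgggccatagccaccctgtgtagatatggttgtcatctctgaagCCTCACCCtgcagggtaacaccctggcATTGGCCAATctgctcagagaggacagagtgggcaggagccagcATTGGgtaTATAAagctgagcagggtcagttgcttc
Alas2 upstream, chrX:150547167-150547416, + strand: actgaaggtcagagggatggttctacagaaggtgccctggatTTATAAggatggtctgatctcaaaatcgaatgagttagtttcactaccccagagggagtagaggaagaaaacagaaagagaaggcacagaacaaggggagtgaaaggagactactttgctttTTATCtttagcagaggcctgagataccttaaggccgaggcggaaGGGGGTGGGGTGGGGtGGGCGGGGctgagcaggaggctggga

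GATAA was found upstream of all 5 of the genes searched (both α and both β genes and Alas2) and in 22.6% of 32851 RefSeq promoter windows of this length. The letters TATAA were also found in 5 of 5 and in 22.8% of all windows, CCAAT in 4 of 5 and in 33.8%, and the CACC box in 3 of 5 and in 45.9%. In Alas2, CACC matches overlap each other, and a TATAA match overlaps its own reverse complement. These are matches of letters and not sites shown to be bound.

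The share of a cell's UMIs taken by the 4 globin genes was higher in late than in dividing cells and highest in low-gene cells. Low-gene cells were set apart by gene number and not by stage markers. They count below as a stage only as the last in this order. Globins took 39.1% of UMIs in dividing cells of Lipo-Clo and 37.4% in Lipo-PBS, 76.9% and 81.8% in late cells, and 94.0% and 94.4% in low-gene cells. Counting intervals were under 0.5 percentage points wide. Single cells ranged widely within a stage, from 0.921% to 87.2% of UMIs in dividing cells of Lipo-Clo and from 24.3% to 93.9% in late cells, so the stages overlapped cell by cell. In UMIs per cell the difference was smaller. Hbb-bs, the most abundant of the 8, gave 1101 UMIs per dividing cell, 1454 per late cell and 1647 per low-gene cell in Lipo-Clo, and 1063, 1721 and 1639 in Lipo-PBS. Over the same order the median number of UMIs outside the globins was lower at each later stage, from 1883 to 599.5 and then 145 in Lipo-Clo, and from 2077 to 550 and then 136 in Lipo-PBS. The limit of 200 genes that defines low-gene cells itself bounds that number, and so bears on their globin share too.

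**Figure D1:**
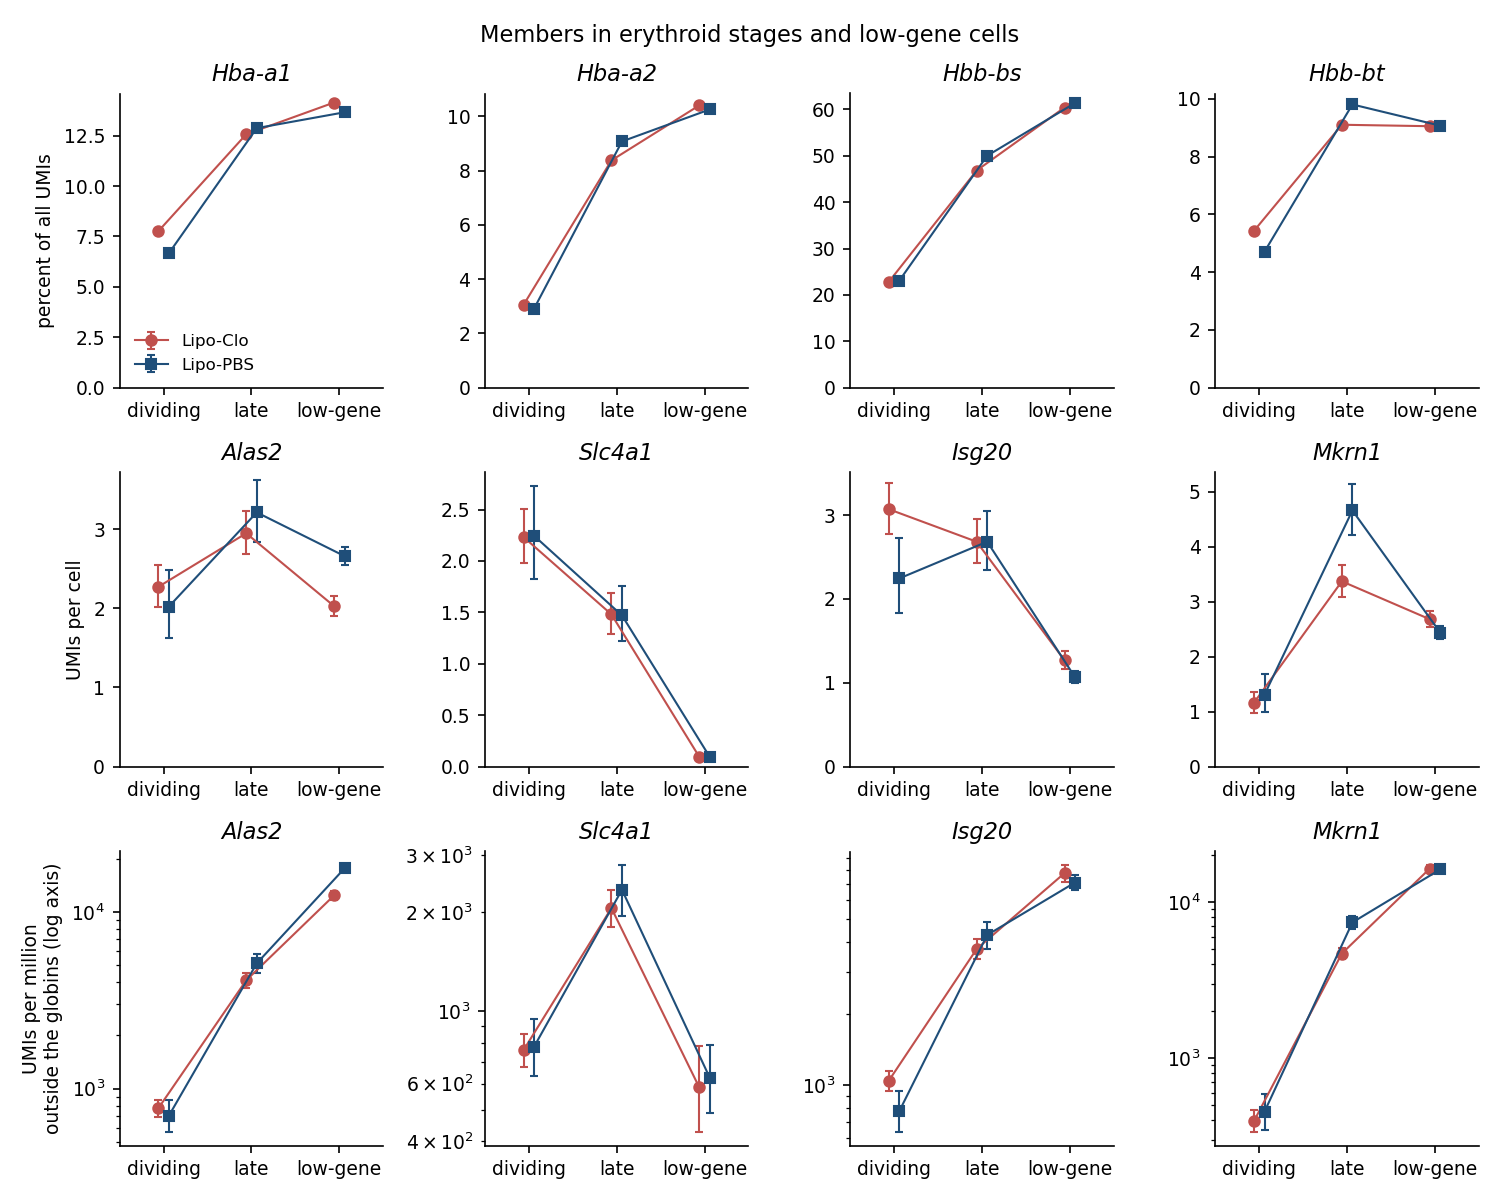
Globins as percent of all UMIs (top row) and Alas2, Slc4a1, Isg20 and Mkrn1 as UMIs per cell (middle row) and per 1000000 UMIs outside the globins (bottom row, log axis) in dividing, late and low-gene cells of each library, with 95% counting intervals. On the last scale Alas2, Isg20 and Mkrn1 are higher at each later stage, whereas Slc4a1 is highest in late cells (2062 and 2346) and is at 0.0951 and 0.0936 UMIs per low-gene cell.

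The 2 genes of each globin pair did not keep a fixed ratio. Hba-a1 made up 71.8% of α-globin UMIs in dividing cells of Lipo-Clo (95% interval 71.4 to 72.1), 60.0% in late cells and 57.6% in low-gene cells, and the Lipo-PBS values were 69.6%, 58.6% and 57.1%. Hbb-bt made up 19.2% of β-globin UMIs in dividing cells of Lipo-Clo, 16.3% in late cells and 13% in low-gene cells, and 16.9%, 16.4% and 12.9% in Lipo-PBS. In the few dividing cells with at most 5% globin, 5 in Lipo-Clo and 4 in Lipo-PBS, Hba-a1 was at 79.5% and 82.2% of α and Hbb-bt at 37.1% of β in both libraries. Among low-gene cells the share of Hbb-bt was lower the fewer genes a cell had. It was 15.6% and 15.1% at 150 to under 200 genes, 13.8% and 13.5% at 100 to under 150, and 10.5% and 10.4% at 50 to under 100, while Hba-a1 stayed between 57.0% and 58.3% of α in the same groups. The α chains together held 27.7% and 25.6% of globin UMIs in dividing cells and 26.1% and 25.3% in low-gene cells.

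Low-gene cells differed from one another in the β ratio by more than counting error, as did dividing and late cells. With at least 200 β-globin UMIs per cell, the share of Hbb-bt ranged from 0.855% to 22.8% over 468 cells of Lipo-Clo and from 1.20% to 25.3% over 748 cells of Lipo-PBS. Its SD over cells was 4.01 and 3.84 percentage points, whereas counting alone gives 0.803 and 0.802. For Hba-a1 among α the SDs were 3.38 and 3.15 points against 2.01 and 2.07 from counting. At the same UMI limit, in cells whose UMIs were mostly globin, the Hbb-bt SDs were 3.57 and 4.29 points in dividing cells (0.952 and 0.900 from counting). In late cells they were 3.21 and 3.02 (0.939 and 0.913 from counting). The Hba-a1 SDs were 5.15 and 6.08 points in dividing and 4.77 and 4.66 in late cells, above those of low-gene cells.

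**Figure D2:**
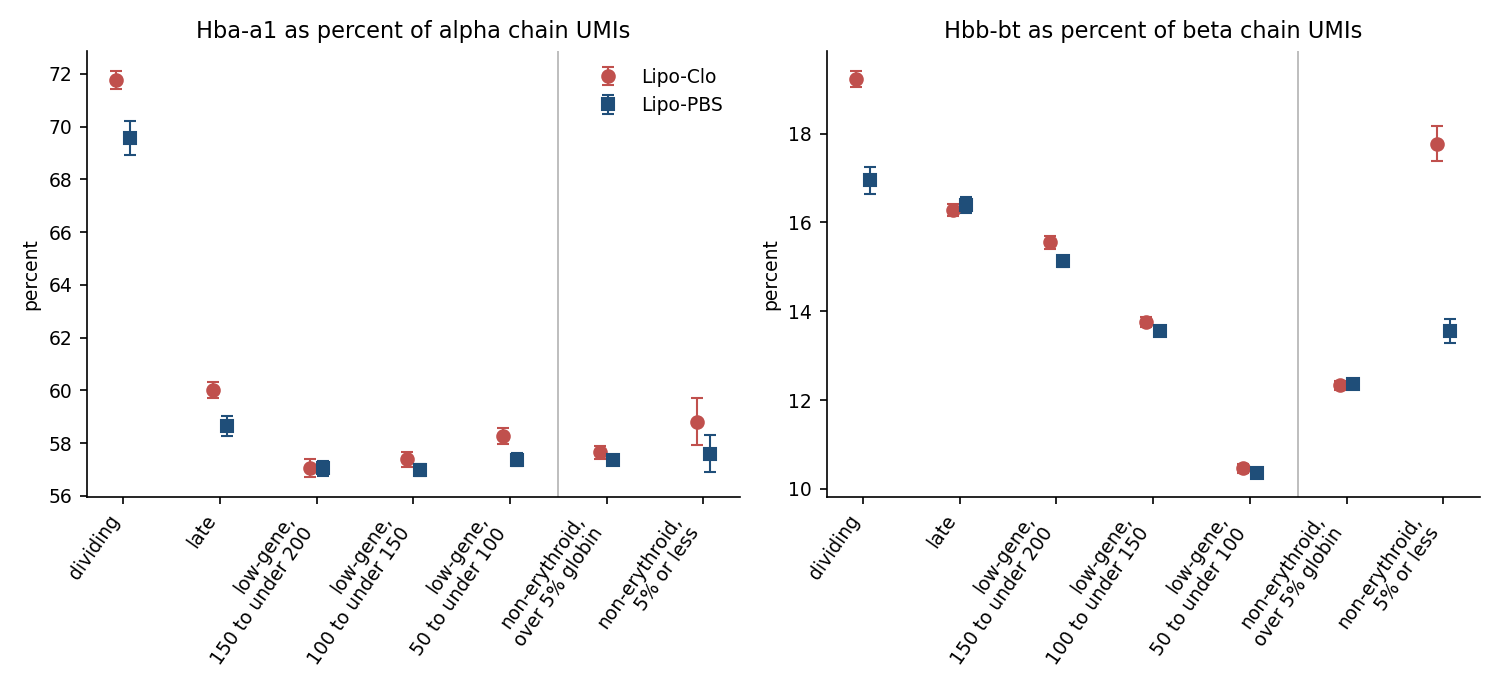
Hba-a1 as percent of α-globin UMIs (left) and Hbb-bt as percent of β-globin UMIs (right) by stage and by number of genes in low-gene cells, and in non-erythroid cells over and at most 5% globin, each library apart, with 95% counting intervals (the vertical axes do not start at 0). The Hbb-bt share is lowest, at 10.5% and 10.4%, in cells with 50 to under 100 genes, while the Hba-a1 share levels off near 57%.

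Alas2 kept closest to the globins among the other 4 genes from dividing to late cells. It gave 2.27 UMIs per dividing cell, 2.95 per late cell and 2.03 per low-gene cell in Lipo-Clo, and 2.02, 3.21 and 2.66 in Lipo-PBS. Relative to UMIs outside the globins this was 773, 4107 and 12447 per 1000000 UMIs outside the globins in Lipo-Clo and 701, 5124 and 17749 in Lipo-PBS, so late cells exceeded dividing cells by a log2 ratio of 2.41 [2.20, 2.63] and 2.87 [2.52, 3.23]. Per 100000 globin UMIs it was 121, 123 and 79.1 in Lipo-Clo and 117, 114 and 106 in Lipo-PBS. On that scale dividing and late cells overlapped in both libraries, and low-gene cells were lower than dividing cells in Lipo-Clo, with a log2 ratio of -0.61 [-0.80, -0.41], but overlapped them in Lipo-PBS, at -0.15 [-0.46, 0.16].

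Slc4a1 was lower per cell at each later stage. It gave 2.23 and 2.24 UMIs per dividing cell, 1.48 and 1.47 per late cell, and 0.0951 and 0.0936 per low-gene cell in Lipo-Clo and Lipo-PBS. A UMI of it was seen in 86.8% and 75.6% of dividing cells, 73.4% and 75.3% of late cells, and 7.82% and 7.09% of low-gene cells. Total depth was similar in low-gene and late cells (medians of 2644 and 2577.5 UMIs, and 2868 and 3203) but higher in dividing cells (4265 and 3712). Relative to all UMIs, a scale chosen after seeing the data, Slc4a1 in low-gene over dividing cells was at log2 ratios of -3.73 and -3.80. The medians over all genes were -4.30 and -4.33, so Slc4a1 was lower by less than the median gene. In the same order of stages Slc4a1 was at 118, 62.0 and 3.71 per 100000 globin UMIs in Lipo-Clo and at 130, 52.3 and 3.71 in Lipo-PBS. Relative to UMIs outside the globins it was highest in late cells, at 759, 2062 and 584 per 1000000 such UMIs in Lipo-Clo and 778, 2346 and 625 in Lipo-PBS, and relative to all UMIs late and dividing cells overlapped, with log2 ratios of 0.04 [-0.21, 0.30] and -0.19 [-0.58, 0.20]. Within low-gene cells Slc4a1 was lower still in those with the fewest genes, with 0.0102 and 0.0101 UMIs per cell at 50 to under 100 genes against 0.314 and 0.299 at 150 to under 200. These groups are cut by gene number, which itself bounds UMIs outside the globins. Isg20 was likewise at 0.543 and 0.375 UMIs per cell against 2.18 and 1.98, and Mkrn1 at 1.14 and 0.970 against 4.94 and 4.51.

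Isg20 lay between these courses. It gave 3.07, 2.68 and 1.27 UMIs per cell through the 3 stages in Lipo-Clo and 2.24, 2.68 and 1.07 in Lipo-PBS. Relative to UMIs outside the globins it was higher in low-gene than in dividing cells, with log2 ratios of 2.90 [2.71, 3.09] and 3.19 [2.89, 3.51], but relative to globin UMIs it was lower, at -1.72 and -1.62.

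Mkrn1 showed the widest difference of the 8 between dividing and late cells in both libraries. It gave 1.16 and 1.31 UMIs per dividing cell, 3.37 and 4.66 per late cell, and 2.68 and 2.44 per low-gene cell. Late exceeded dividing cells by a log2 ratio of 3.57 [3.30, 3.84] in Lipo-Clo and 4.03 [3.63, 4.45] in Lipo-PBS relative to UMIs outside the globins, and by 1.19 [0.93, 1.47] and 1.12 [0.72, 1.54] relative to globin UMIs. Mkrn1 was therefore higher in late cells on each scale used, which did not hold for Alas2, Slc4a1 or Isg20.

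Over all genes measured, 17.3% were at least 2-fold higher in late than in dividing cells of Lipo-Clo and 22.6% in those of Lipo-PBS, against 6 and 7 of the 8. For low-gene over dividing cells the figures were 12% and 20.4% of all genes and 5 and 6 of the 8. Globins were compared here per all UMIs, and the other 4 genes and the background per UMIs outside the globins. With every gene per all UMIs, chosen after seeing the data, 138 of 3002 and 82 of 1493 genes were more than 2-fold higher in late than in dividing cells. On that scale Alas2, at log2 ratios of 1.01 and 1.09, and Mkrn1, at 2.17 and 2.25, were past 2-fold. Slc4a1, at 0.04 and -0.19, and Isg20, at 0.44 and 0.68, were not.

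The lists around the 8 genes are given as log2 ratios of low-gene over dividing cells relative to UMIs outside the globins. On that scale 12% of all genes in Lipo-Clo and 20.4% in Lipo-PBS were more than 2-fold higher, and 48.7% and 45.4% more than 2-fold lower. Of 12 heme synthesis genes measured in Lipo-Clo, 3 were more than 2-fold higher and 8 more than 2-fold lower in low-gene than in dividing cells, with a median log2 ratio of -2.09 against -0.95 over all genes. In Lipo-PBS it was 2 and 8 of 11, with medians of -3.77 and -0.85. Alas2 was on the higher side at 4.01 [3.82, 4.20] and 4.66 [4.36, 4.98]. Tmem14c, needed for import of heme precursors into the mitochondrion, stood at -4.58 and -4.67. Membrane and skeleton genes were mostly lower, 15 of 22 in Lipo-Clo and 15 of 21 in Lipo-PBS, with medians of -1.95 and -2.40. Rhd, of the Rh blood group complex, was at -3.26 and -4.03. Of the ubiquitin and organelle clearance genes 16 of 21 and 14 of 21 were more than 2-fold higher on that scale, with medians of 3.30 and 3.13. Relative to all UMIs, an alternative chosen after seeing the data, the medians of this list were -0.05 and -0.34, against -4.30 and -4.33 over all genes. On that scale 4 and 3 of the 21 were more than 2-fold higher and 8 and 10 more than 2-fold lower. Over all genes 14 of 2819 and 28 of 1697 were more than 2-fold higher there, and 2681 and 1559 more than 2-fold lower. Relative to UMIs outside the globins, Ubb (ubiquitin) of this list was at 3.37 and 3.13 and Mkrn1 at 5.38 [5.13, 5.63] and 5.16 [4.79, 5.56]. Mkrn1 was at 2.03 [1.78, 2.28] and 1.68 [1.31, 2.08] relative to all UMIs. Of the interferon-stimulated genes 4 of 7 and 4 of 5 were more than 2-fold higher relative to UMIs outside the globins, among them Isg15 at 2.40 and 2.18. Relative to all UMIs 0 of 7 and 0 of 5 were more than 2-fold higher and 4 and 3 more than 2-fold lower, with medians of -1.98 and -1.30. 

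On the same scale relative to UMIs outside the globins, iron supply genes lay on both sides. Of 8 measured in Lipo-Clo, 3 were more than 2-fold higher and 3 more than 2-fold lower in low-gene than in dividing cells, and of 7 in Lipo-PBS 3 and 2. Ftl1 (ferritin light chain) was at 2.34 and 2.47, and Slc25a37 at 1.29 and 1.83. Fth1 (ferritin heavy chain) was at 0.28 and 0.06, and Tfrc, the transferrin receptor, at -3.09 [-4.55, -1.95] and -3.68 [-5.16, -2.50]. Of the erythroid transcription factors none was past 2-fold higher, and 8 of 13 (48.7% of all genes) and 4 of 8 (45.4%) were past 2-fold lower, so that their share in Lipo-PBS lay near that of all genes. Klf1, an activator of β-globin, gave 1.34 and 1.33 UMIs per dividing cell but 3 UMIs in all low-gene cells of Lipo-Clo and 1 in those of Lipo-PBS. Ahsp, the α-globin chaperone, gave 55.9, 32.2 and 1.38 UMIs per cell through the 3 stages in Lipo-Clo and 51.3, 25.4 and 0.418 in Lipo-PBS, so that it was far lower in low-gene cells while the α-globins were not. Among red cell enzymes and redox genes 4 of 11 (12% of all genes) and 5 of 11 (20.4%) were past 2-fold higher and 2 and 1 past 2-fold lower. Bpgm, which makes the allosteric effector of hemoglobin, was at 6.48 and 6.01, and Gpx1, a glutathione peroxidase, at 2.46 and 2.29.

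In low-gene cells, outside the globins, the genes with most UMIs, named after their values were seen, were Ubb, Gpx1 and Oaz1 in Lipo-Clo and Ubb, Oaz1 and Gpx1 in Lipo-PBS. Messages of other lineages were also present, with S100a9 (a neutrophil gene) in 39.1% of the low-gene cells of Lipo-Clo and Col1a1 (a collagen gene) in 71.3% of those of Lipo-PBS. Each was among the 15 genes with most UMIs outside the globins in that library alone. Its share in the other library is not given here, so the libraries are not compared on these genes. Of the low-gene cells of Lipo-Clo 5 had under 1% globin and were led by S100a9. The lowest low-gene cell of Lipo-PBS had 67.3% globin. Without those 5 cells no low-gene ratio of the 8 genes given here changed direction, and Alas2 in Lipo-Clo over Lipo-PBS was at -0.45.

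Across 34 profiles of cell class by library, the 4 globins correlated with each other at Pearson r of 0.991 to 0.997 on the scale log2(level + 10). The gene outside the 8 most like Hba-a1 and Hbb-bt was Slc25a37 (mitoferrin), with r of 0.944 for Hba-a1. Isg20 was most like Ube2l6 (a conjugating enzyme for ubiquitin and ISG15, 0.979) and Mkrn1 most like Tent5c (0.978). The profiles share their libraries, and most of them are non-erythroid classes at low levels, so r describes likeness only.

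In cells outside the erythroid clusters, the globins were found nearly everywhere at low levels and at high levels in a minority. A UMI of Hbb-bs was seen in 93.5% of 7858 such cells of Lipo-Clo and 98.0% of 7991 such cells of Lipo-PBS, and after thinning each cell to 500 UMIs in 51.3% and 69.6%. The median cell had 0.190% globin in Lipo-Clo and 0.315% in Lipo-PBS. Over the 13 classes the class medians ran from 0.153% (cycling) to 0.273% (endothelium) in Lipo-Clo. In Lipo-PBS they ran from 0.253% (cycling) to 5.03% in an unnamed cluster led by Acta2 and Tagln, with a median over classes of 0.337%. That cluster held 50 cells of Lipo-Clo and 642 of Lipo-PBS.

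A separate tail held over 5% globin, 330 cells (4.20%) of Lipo-Clo and 1256 (15.7%) of Lipo-PBS. Between 1% and 5% there were only 83 and 326 cells. Every class had such cells, from 2.34% of macrophage-like to 16% of the Acta2 and Tagln cluster in Lipo-Clo, and from 8.93% of T or NK-like to 50% of that cluster in Lipo-PBS. Their chain ratios were near those of low-gene cells, with Hba-a1 at 57.7% and 57.4% of α and Hbb-bt at 12.3% and 12.4% of β. In cells with at most 5% globin Hba-a1 was at 58.8% and 57.6% of α, and Hbb-bt at 17.8% [17.4, 18.2] of β in Lipo-Clo and 13.6% [13.3, 13.8] in Lipo-PBS. In Lipo-PBS the Acta2 and Tagln cluster had the lowest Hbb-bt share of the 13 classes in such cells, 9.63%. The median over classes was 14.7%. In the cells over 5%, the ratios of Alas2 (74.2 and 85.0), Isg20 (42.9 and 44.7) and Mkrn1 (104 and 110) to 100000 globin UMIs also lay near the low-gene values, and that of Slc4a1 (9.64 and 8.75) lay between those of low-gene and late cells. In Lipo-PBS, however, Alas2 [80.1, 90.1] was clear below its low-gene value of 106 [101, 110]. Mkrn1 [104, 115] was clear above its low-gene value of 96.7 [92.3, 101] there. Droplets that hold a red cell beside another cell and droplets with much free RNA cannot be told apart here.

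**Figure D3:**
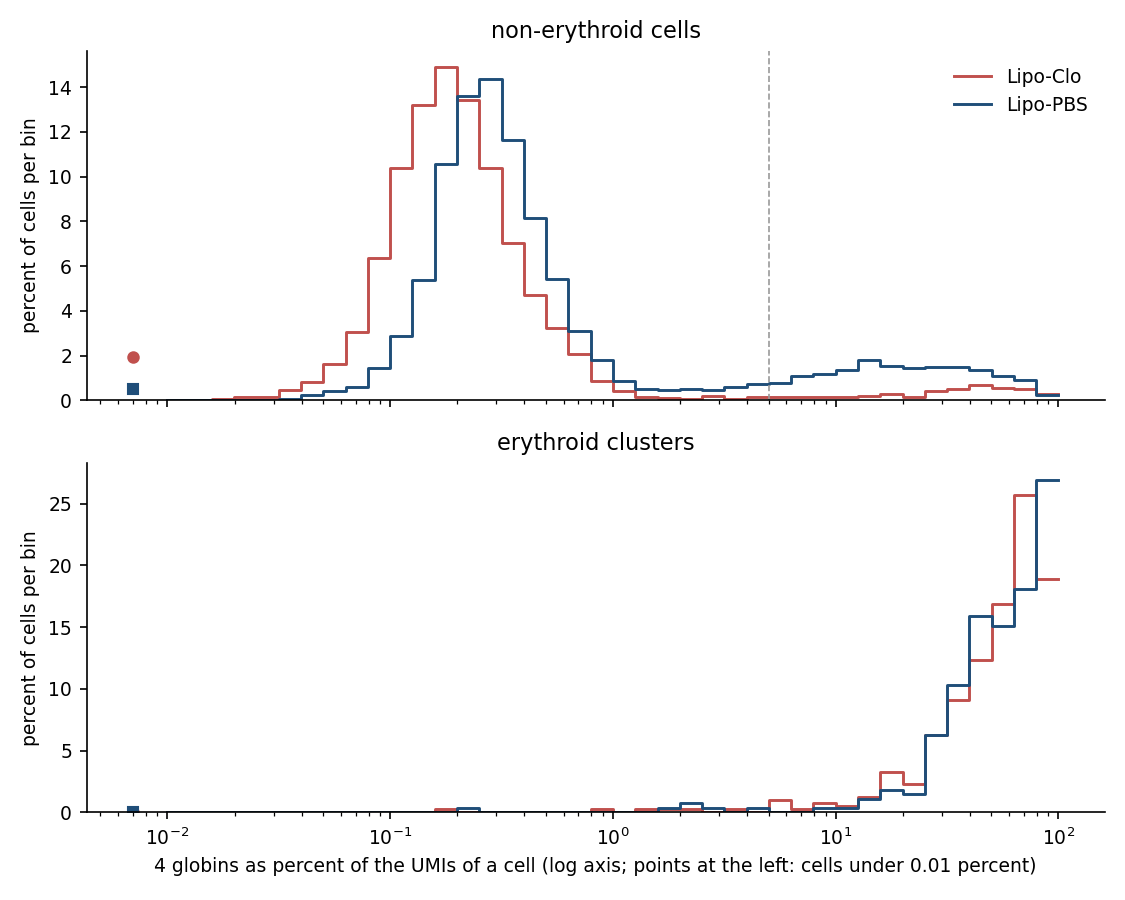
Distribution of the globin share of UMIs over single cells outside (top) and inside (bottom) the erythroid clusters, in percent on a log axis, for each library, with the dashed line at 5% and points at the left for cells under 0.01%. Most non-erythroid cells lie below 1%, and the tail above 5% holds 4.20% of them in Lipo-Clo and 15.7% in Lipo-PBS.

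In cells with at most 5% globin, the 4 other genes were set against their ratios to globin in the erythroid stages and in low-gene cells. At the Alas2-to-globin ratio of the low-gene cells, 37.5 UMIs of Alas2 would accompany the globin of these cells of Lipo-Clo and 85.4 in those of Lipo-PBS, and 52 [38.8, 68.2] and 98 [79.6, 119] were counted, so that the Lipo-Clo interval lay just above the low-gene ratio and the Lipo-PBS interval held it. For Slc4a1, 29 and 42 UMIs were counted against 1.76 and 3.01 at the low-gene ratio. Per 100000 globin UMIs, however, this was 61.2 and 51.9, next to 62.0 and 52.3 in late cells and below the 118 and 130 of dividing cells. For Isg20 it was 325 and 235 against 23.4 and 34.2 at the low-gene ratio, and for Mkrn1 1527 and 1140 against 49.5 and 78.3, and both genes also exceeded their ratios in late and dividing cells. Mkrn1 differed between classes. It was highest in T or NK-like cells, with 140 [94.2, 199] per 1000000 UMIs outside the globins in Lipo-Clo and 126 [83.7, 182] in Lipo-PBS, followed by the dendritic-, macrophage- and neutrophil-like classes. In Lipo-Clo the neutrophil-like class, at 103 [91.3, 116], was clear of the next class, epithelium, at 66.7 [56.8, 77.8]. Endothelium was at 33.4 and 41.2. Neighbouring classes in the order overlapped otherwise. Isg20 was also highest in T or NK-like cells, at 27.9 and 27.0 per 1000000 UMIs outside the globins, but on 6 UMIs in each library.

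**Figure D4:**
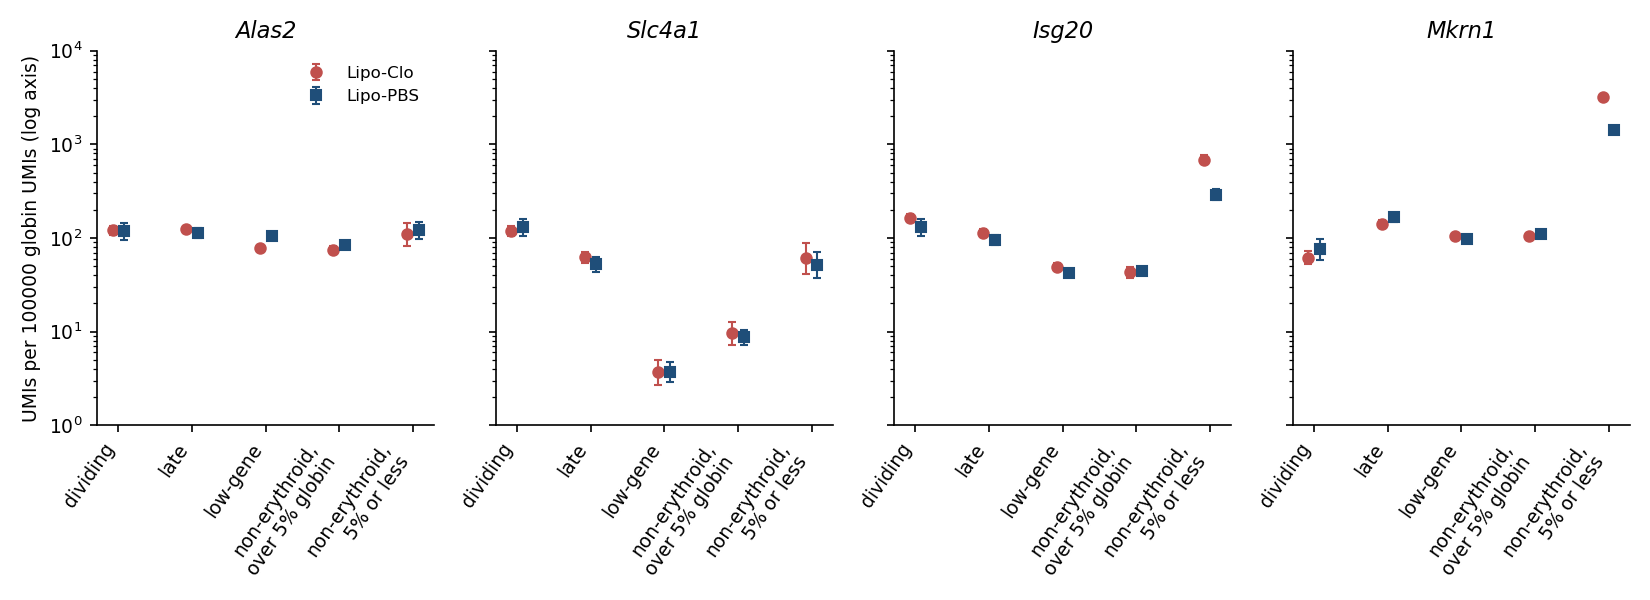
Alas2, Slc4a1, Isg20 and Mkrn1 per 100000 globin UMIs (log axis) in the 3 erythroid stages and in non-erythroid cells above and at most 5% globin, each library apart, with 95% counting intervals. In cells with at most 5% globin, Isg20 (686 and 290) and Mkrn1 (3223 and 1409) exceed every erythroid stage, while the intervals of Alas2 (110 and 121) overlap those of dividing cells (121 and 117).

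Between conditions, the erythroid clusters differed little in globins. The 4 globins took 50.9% of their UMIs in Lipo-Clo against 54.4% in Lipo-PBS, with a log2 ratio of -0.10 [-0.10, -0.09], and 0 of the 8 genes were past 2-fold, which 15.4% of 7071 genes were. The interval lay above equal levels for 3 of the 8 (10.3% of all genes) and below for 4 (17.2%). Hba-a1 was at 0.04 and Hbb-bt at 0.01, the latter not clear of equal levels, and Hba-a2 at -0.18 and Hbb-bs at -0.14. Slc4a1 was at 0.29 [0.10, 0.48] with 784 and 642 per 1000000 UMIs outside the globins, Isg20 at 0.25 [0.10, 0.40] with 1278 and 1078, Alas2 at -0.15 [-0.29, -0.01] with 1160 and 1287, and Mkrn1 at -0.40 [-0.53, -0.27] with 1234 and 1627. Dividing cells made up more of the Lipo-Clo clusters and unnamed subclusters more of the Lipo-PBS ones. With the unnamed subclusters left out, Slc4a1 was at -0.23, Isg20 at -0.12 and Hba-a1 at -0.06. With erythroid cells called by marker UMIs in place of clusters, globins were at 0.20, Alas2 at 0.41 and Mkrn1 at 0.19.

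Stage by stage, the ratios were small. In dividing cells Hba-a1 was higher in Lipo-Clo (0.22 [0.19, 0.25]), as was Hbb-bt (0.21 [0.17, 0.24]), while Hbb-bs was at -0.02. Isg20 was at 0.42 [0.11, 0.75], and Alas2, Slc4a1 and Mkrn1 were not clear of equal levels. None of the 8 was past 2-fold, against 11.6% of 3182 genes. The interval lay above equal levels for 4 of the 8 (5.59% of all genes) and below for 1 (6.57%). In late cells Mkrn1 was lower in Lipo-Clo, with 3.37 against 4.66 UMIs per cell and a log2 ratio of -0.66 [-0.85, -0.47] relative to UMIs outside the globins and -0.32 [-0.51, -0.13] relative to all UMIs. Alas2 was at -0.32 [-0.54, -0.10] on the first scale and 0.02 [-0.20, 0.25] on the second. With globins per all UMIs and the others on the first scale, the 8 ratios in late cells ran from -0.66 to -0.03. The interval lay above equal levels for 0 of the 8 (9.67% of all genes) and below for 6 (7.39%). None was past 2-fold, against 13% of 1137 genes.

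In low-gene cells the globins hardly differed, at -0.01, and Alas2 had the widest ratio of the 8. It gave 2.03 UMIs per cell in Lipo-Clo and 2.66 in Lipo-PBS, and at least 1 UMI in 77.2% and 89.8% of cells. Its log2 ratio was -0.51 [-0.62, -0.40] relative to UMIs outside the globins and -0.42 [-0.53, -0.31] relative to all UMIs. It was lower in Lipo-Clo in each group by gene number, with 1.63 against 2.13 UMIs per cell at 50 to under 100 genes, 2.12 against 2.88 at 100 to under 150, and 2.75 against 3.31 at 150 to under 200. The ratio was -0.30 with low-gene cells limited to under 100 genes and -1.20 with the limit at 500. Mkrn1 was at 0.02 [-0.09, 0.12], Isg20 at 0.13 [-0.02, 0.29] and Slc4a1 at -0.10 [-0.67, 0.46]. None was past 2-fold, against 16.2% of 1042 genes. Mitochondrial genes took 0.0610% of UMIs of low-gene cells of Lipo-Clo and 0.176% in those of Lipo-PBS, and the part of RNA quality in the Alas2 value was not tested.

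**Figure D5:**
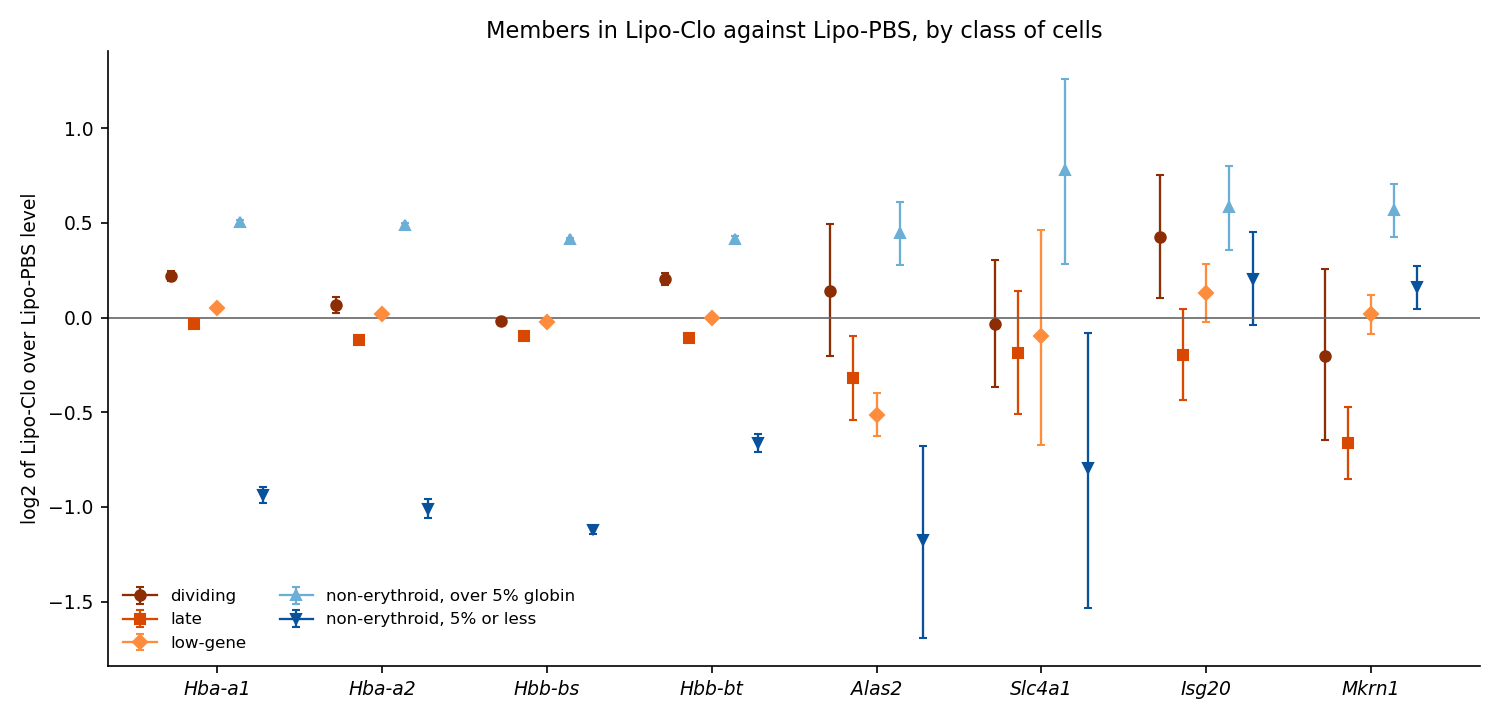
Log2 ratio of Lipo-Clo over Lipo-PBS for each of the 8 genes by class, with 95% counting intervals, globins per all UMIs and the other 4 genes per UMIs outside the globins. Classes are dividing, late and low-gene cells and non-erythroid cells over and at most 5% globin. The first 3 lie between -0.66 and 0.42, whereas the globins lie between -1.12 and -0.66 in cells with at most 5% globin and between 0.41 and 0.50 in cells over 5%.

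In the erythroid clusters as a whole, 8 of 13 heme synthesis genes and 10 of 24 membrane and skeleton genes had an interval above equal levels in Lipo-Clo, as did 10.3% of all genes, while 17.2% of all genes lay below. Of the 13 heme synthesis genes measured, none was past 2-fold and 1 interval lay below, with a median of 0.50 against -0.13 over all genes. Alad, an enzyme of an early step of the pathway, was at 0.91 [0.68, 1.15] and Tmem14c at 0.87 [0.72, 1.02], while Alas2 was the 1 below. Of the membrane and skeleton genes 1 interval lay below, with a median of 0.32, and Ahsp was at 0.59 [0.55, 0.63]. Within dividing cells the heme synthesis list had 1 interval above and 0 below of 12 (5.59% and 6.57% of all genes), with a median of 0.13, and the membrane list 1 above and 0 below of 23, with a median of -0.13. Within late cells the heme synthesis list had 1 above and 1 below of 11 (9.67% and 7.39% of all genes), with a median of 0.18, and the membrane list 2 above and 1 below of 22, with a median of 0.06. Bpgm, a late gene, was at -0.68 [-0.85, -0.50] in the clusters as a whole. Among interferon-stimulated genes, a list that includes Isg20, 5 of 14 intervals (10.3% of all genes) lay above and 0 below, with Isg15 at 0.78 [0.66, 0.91] and Ifi27 at 0.82 [0.50, 1.15]. Past 2-fold higher were 2 of the 14 and past 2-fold lower 0 (15.4% of all genes either way). Within dividing cells this list had 3 intervals above and 0 below of 7 (5.59% and 6.57% of all genes), with a median of 0.40.

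In non-erythroid cells all 8 genes were lower in Lipo-Clo. Globins took 2.37% of UMIs in Lipo-Clo against 5.74% in Lipo-PBS, with a log2 ratio of -1.27 [-1.28, -1.27]. Past 2-fold lower were 6 of the 8, the globins, Alas2 at -1.50 [-1.66, -1.35] and Slc4a1 at -1.03 [-1.44, -0.64], as were 5.9% of 17620 genes. Isg20 was at -0.65 [-0.81, -0.49] and Mkrn1 at -0.39 [-0.47, -0.31]. The globins were lower in each of the 13 classes, with a median of -1.19 and a range from -2.46 to -0.21. With the cells over 5% globin left out, globins were at -1.03 [-1.05, -1.01], Alas2 at -1.18 [-1.69, -0.68] and Slc4a1 at -0.80 [-1.53, -0.08]. Mkrn1 was then on the other side of equal levels at 0.16 [0.05, 0.27], and Isg20, at 0.21 [-0.04, 0.45], was not clear of them. Within the fewer cells over 5% globin of Lipo-Clo all 8 genes were higher than in those of Lipo-PBS, globins per all UMIs and the others per UMIs outside the globins. The globins were at 0.44 [0.43, 0.44] with 1666 UMIs per cell in Lipo-Clo, and Mkrn1 at 0.57 [0.43, 0.71]. Per 100000 globin UMIs, Alas2 (74.2 and 85.0), Isg20 (42.9 and 44.7) and Mkrn1 (104 and 110) were lower in Lipo-Clo. Slc4a1 (9.64 and 8.75) was higher, and the intervals of each of these genes overlapped between libraries. Over all non-erythroid cells, the globins were at -1.24 without the Acta2 and Tagln cluster. The ratios in cells at most and over 5% globin were not recomputed without it. In Lipo-PBS its cells with at most 5% globin held 1.54% globin, against 0.409% over all such cells. They were 321 of 6735 such cells and held 18522 of their 80906 globin UMIs. In Lipo-Clo they were 42 of 7528 cells, with 298 of 47374 globin UMIs. Of the cells over 5% globin, the cluster held 321 of 1256 in Lipo-PBS and 8 of 330 in Lipo-Clo. Of all globin UMIs, 21.1% in Lipo-Clo and 35.0% in Lipo-PBS lay in non-erythroid cells, and 42.9% and 46.5% in low-gene cells. Mitochondrial genes took 0.384% of UMIs of the non-erythroid cells of Lipo-Clo and 1.78% in those of Lipo-PBS, and the part of RNA quality in the globin values was not tested.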

How the data were processed

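Both libraries were analysed from the deposited UMI counts per gene and cell, which the authors made with Cell Ranger. The file headers name version 8.0.0, and the submitters' processing notes name Cell Ranger 3.1.0, Seurat 3.1.1 and GRCm39. Cells under 200 genes were set apart, and cells over 20% mitochondrial UMIs (3 and 11) were removed. The automatic threshold of Scrublet called 0 and 1 doublets, so the highest-scoring 631 and 632 cells (7.10% and 7.11%) were removed. The other cells were clustered in scanpy 1.11.5 without the 8 genes (2000 variable genes, 30 components, Leiden resolution 1), and erythroid cells again (1000 genes, 15 components, resolution 0.5). A class name rested on at least 3 fixed markers.

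Globins were expressed per all UMIs and the other 4 genes per 1000000 UMIs outside the globins. Ratios carry exact 95% intervals for 2 Poisson counts and shares Clopper-Pearson intervals. Genes entered a background with at least 20 UMIs over both sides. A gene with no UMIs on 1 side was given 3 there for its ratio. Shares past 2-fold and medians over all genes and over lists rest in part on that value. The interval and ratio code was tested on simulated data. No test was possible with 1 library per condition. The members and lists were chosen with earlier results of these data known. Named besides the 8 were, per list, the 3 genes with most UMIs in erythroid clusters and the 2 with the largest ratio, then the genes most like each member and the 3 leading each cluster. Some genes that this rule names are not reported here. RefSeq promoter windows matched 1 entry for each of 5 of the 8 genes. Alternatives were each computed with 1 choice changed, edgeR 4.0.16 (TMM) and DESeq2 1.42.0 giving scaling factors only.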

Additional observations from a re-analysis of the deposited data

Results flagged for a closer look

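Several ratios of Lipo-Clo over Lipo-PBS lay on opposite sides of equal levels in different cells, with intervals clear of it on both sides. The difference between classes was not tested, since each condition is a single library. The 4 globins together were at 0.06 in dividing erythroblast-like cells (39.1% of UMIs in Lipo-Clo), -0.09 in late cells, -0.01 in low-gene cells and -1.27 in non-erythroid cells, all as log2 ratios. Hba-a1 was at 0.22 in dividing and 0.05 in low-gene cells, but at -0.03 in late and -1.21 in non-erythroid cells. Hba-a2 was at 0.07, 0.02, -0.12 and -1.23 in the same order. Hbb-bt was at 0.21 in dividing cells, -0.11 in late cells and -1.26 in non-erythroid cells. Isg20 was at 0.42 in dividing cells and -0.65 in non-erythroid cells, and the latter became 0.21, not clear of equal levels, with cells over 5% globin left out. No outlier check applied, because a group of 1 library has no spread.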

How the results depend on the processing

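Of 310 recomputed values, 127 stayed within a set limit, 147 moved beyond it and 36 changed direction. The limit was the counting interval for ratios and shares, and a fixed fold for counts of genes. A ratio not clear of equal levels was not counted as changing direction. No paired analysis was possible because the design has a single library for either condition. All ratios are log2 of Lipo-Clo over Lipo-PBS, and the cause of the shifts was not tested. With doublets kept, globins were at -0.17 in erythroid clusters and -1.17 in non-erythroid cells, and Hba-a1 at -0.03. With cells split at 500 genes, globins were at -1.29 in non-erythroid and -0.19 in low-gene cells, Alas2 at 0.02 in erythroid clusters, Hba-a1 at -0.13 and Hba-a2 at -0.17 in low-gene cells, and the difference in cell shares was 1.71 points for erythroid cells (1.53 as reported) and 0.26 for low-gene cells (-2.70 as reported). Low-gene cells at the limit of 500 took in cells of any class below it. Split at 100 genes, globins were at -0.28, -1.25 and 0.01 in erythroid, non-erythroid and low-gene cells, Hba-a1 at -0.16 and Isg20 at -0.30 in erythroid clusters, and the shares differed by -0.28 and -0.94 points. At Leiden resolution 2 the erythroid globin ratio was -0.13 and the share difference 1.37 points. With each library clustered on its own, globins were at -0.26 and -1.18 and Hba-a1 at -0.11, and 1852 genes were past 2-fold in erythroid clusters (1090 as reported). With the members kept in the clustering, globins were at -0.01 and -1.20, Alas2 at 0.02, and the erythroid share difference was 1.26 points. With erythroid cells called by marker UMIs, globins were at 0.20 and -1.51, Hba-a2 at 0.15, Hbb-bs at 0.15, Alas2 at 0.41 and Mkrn1 at 0.19, 2134 genes were past 2-fold, and the share difference was -1.45 points. With the same mixture of subclusters Slc4a1 was at -0.02. Thinned to 500 UMIs, erythroid globins were at -0.05, Alas2 at 0.16, and 4 of the 8 genes, not 7, were clear of equal levels. With TMM factors Alas2 was at 0.07. With DESeq2 size factors it was at 0.11 and Hbb-bs at 0.01. With all genes of at least 1 UMI in each library, 3328 were past 2-fold. In non-erythroid cells, the median over named classes was -1.19, and without cells over 5% globin globins were at -1.03, Isg20 at 0.21 and Mkrn1 at 0.16.

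The following were chosen after seeing the data. Without unnamed erythroid subclusters, globins were at -0.19, Hba-a1 at -0.06, Slc4a1 at -0.23 and Isg20 at -0.12, and 402 genes were past 2-fold. Without the Acta2 and Tagln cluster the non-erythroid globin ratio was -1.24. For low-gene over dividing cells, Alas2 was at -0.61 (Lipo-Clo) and -0.15 (Lipo-PBS) per globin UMI and at -0.16 per cell in Lipo-Clo. Isg20 was at -1.72 and -1.62 per globin UMI, -1.28 and -1.07 per cell, and -0.45 and -0.29 per all UMIs. Other uses of the 5% limit than the non-erythroid globin ratio were also chosen then.

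Intervals cover counting error only and not variation between cells, mice or dissociations. Variation between cells exceeded counting error for the shares within each globin pair. Erythroid cells were few (45 dividing cells in Lipo-PBS), and Slc4a1 in low-gene cells rested on 45 and 70 UMIs.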
